A study of Homo sapiens with 20 samples.

Results

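Tumors grown from SJRH30 cells with TLE3 knockout were compared with tumors grown from SJRH30 cells that carried a non-targeting control. The members are 9 of the 20 libraries of the series, chosen by their labels: SJRH30 TLE3 knockout replicates 1 to 5 and SJRH30 control replicates 1, 2, 4 and 5. SJRH30 control 3 was left out: 29206 genes were above 0 in it and its smallest value above 0 was 11, against 1 or 2 in the 9 libraries. Its effect is given below. The same design was run in RD cells, where TLE3 knockout 5 was left out on the same grounds, with 32105 genes above 0 and a smallest value of 5. The other 18 libraries of both lines served to ask where the knockout effect differed between the lines.

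SJRH30 is a cell line of alveolar rhabdomyosarcoma, a childhood soft tissue tumor with muscle features, that carries the PAX3-FOXO1 fusion gene. RD is a rhabdomyosarcoma line without that fusion. Both groups are human cells grafted into NOD/SCID mice, which lack working T and B cells but keep blood vessels, fibroblasts and macrophages of their own, so host RNA is part of each sample. Tumors of both groups were taken out when the controls had grown to the permitted limit and were frozen, and poly(A) RNA was sequenced from each. The labels do not say whether the knockout cells were 1 clone, which guide made the knockout, whether each tumor came from its own mouse, or which of 2 RNA kits was used for which tumor. The p-values below therefore measure the spread between these libraries, which may be partly technical.

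TLE3 is a corepressor of the Groucho family. It has no DNA-binding domain of its own and is brought to genes by partner factors, among them the TCF/LEF factors of the Wnt pathway, HES and HEY proteins of the Notch pathway, and RUNX proteins. Loss of a corepressor can raise the genes it holds down, and genes further along can move either way.

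The targeted gene came first. TLE3 (chromosome 15, 70047790 to 70098176, minus strand, GRCh38) had normalized counts of 426, 638, 597 and 407 in controls 1, 2, 4 and 5. Knockouts 1 to 5 held 967, 806, 582, 637 and 809. The TLE3 transcript was thus not lower in the knockout libraries, the groups overlapped, and the log2 fold change of 0.56 ± 0.28 (SE) did not pass the test (limma, adjusted p = 0.257). Counts over a whole gene do not show a small frameshift deletion, and the labels do not say which part of TLE3 was cut, so these values can neither support nor contradict the label. The libraries labelled TLE3 knockout are called knockouts below on the strength of that label alone.

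The 9 libraries had 37072 to 40636 genes above 0, and library sums of the normalized counts ran from 37.0 M to 60.7 M. All 8 rhabdomyosarcoma markers were present in both groups. MYOD1, the master factor of muscle fate, had 13805 to 44059 in the controls and 10092 to 25776 in the knockouts, and MYOG, which drives muscle differentiation, had 6911 to 20823 and 5577 to 13360. Some libraries stood apart from their labels over all tested genes. Control 1 and control 5 had median rank correlations of 0.962 and 0.959 with the knockouts, above the 0.951 and 0.942 with the other controls, and knockout 3 had 0.953 with the controls and 0.948 with the other knockouts. Knockout 4 held 16.9% mitochondrial transcripts, against 2.34% to 6.22% in the other knockouts and 4.21% to 5.65% in the controls. Knockout 3 held the highest summed macrophage markers of the 9 libraries, 9451 against 3196 to 4469 in the other knockouts and 6035 to 8666 in the controls.

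Of 34595 genes tested, 76 rose (0.22%) and 113 fell (0.327%) in the knockouts, 0.546% in all, at an adjusted p below 0.05. The median log2 fold change over all tested genes was 0.02. Genes that rose did so by 1.25 to 4.33 on the log2 scale, with a median of 2.01, and the 113 that fell had a median of -2.10 and reached -6.30. In 188 of the 189 the values of the groups did not overlap, and SNORD114-18 was the exception. Over all tested genes, groups that did not overlap made up 2.79% on the higher side and 3.17% on the lower side. At an unadjusted p below 0.05 the counts were 3512 higher (10.2%) and 3768 lower (10.9%), so most genes with some sign of a difference stayed below the threshold. Protein-coding genes made up 48.7% of those that rose and 61.9% of those that fell, against 52.8% of the tested genes. In the authors' deposited table, a total of 2990 genes passed an adjusted p below 0.05, and 188 of the 189 genes here were among them with the same sign. KRT17 was the exception, at an adjusted p of 0.283 in the authors' deposited table.

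**Figure D1:**
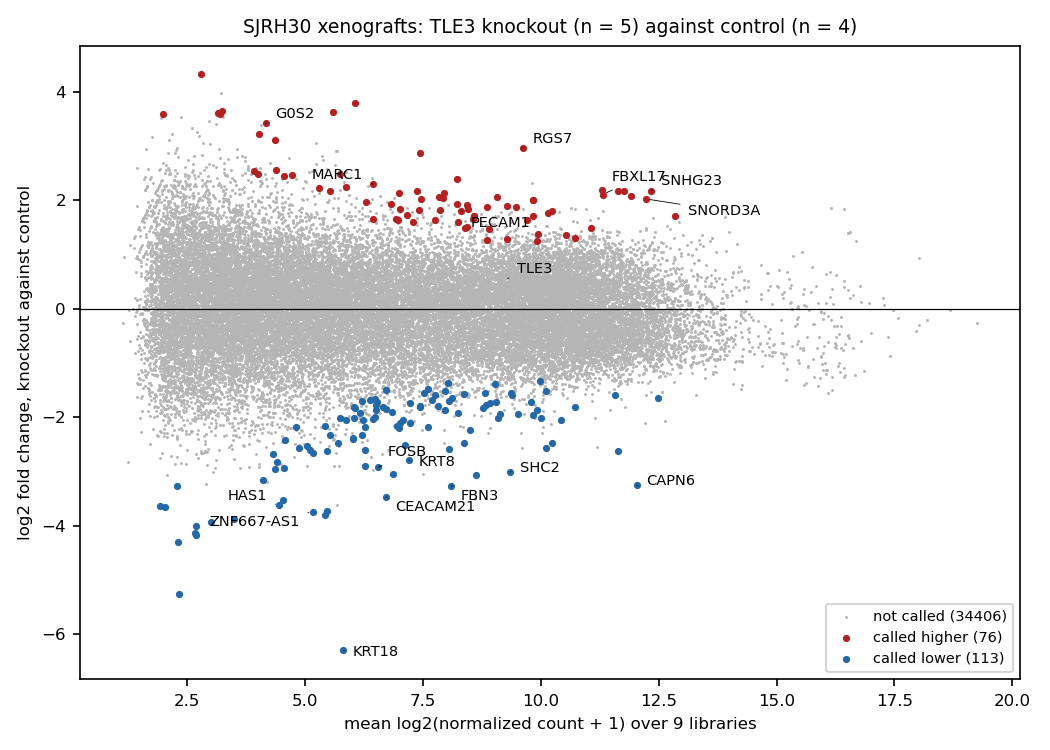
Log2 fold change (knockout against control) plotted against the mean log2(normalized count + 1) of the 9 libraries, 1 point per tested gene, with the 76 genes called higher in red and the 113 called lower in blue. KRT18 lies alone at -6.30, and TLE3 lies among the uncalled genes at 0.56.

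The counts depend strongly on single libraries. Without knockout 3 the test called 951 genes higher and 1026 lower, and without knockout 5 it called 9 and 32. Putting control 3 back left 0 higher genes and 4 lower ones. Those 4 were KRT18, ZNF667-AS1, TMEM273 and the pseudogene AC073055.2, which had 69, 12, 32 and 71 in the controls and is listed at 0 in every knockout. Leaving out each library in turn gave 9 fits. Each of the 189 called genes kept its direction in every fit that tested it. The test was passed in all 9 by 8 of the higher and 18 of the lower genes. IGKC and AC073055.2 reached the minimum value for testing only in the controls, so the test could hardly have called either higher. Fits that left out a control did not test them. Knockout 3 was the knockout nearest to the controls in 103 of the 189 called genes (54.5%).

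The keratins KRT18, KRT8, KRT17 and KRT86 fell. KRT18, a type I keratin that pairs with KRT8 in the filaments of simple epithelia, was the most reduced of the genes with a mean of 50 or more in the controls. KRT18 (chromosome 12, 52948871 to 52952901, plus strand) had 445, 1061, 701 and 495 in the controls. The knockouts held 17, 2, 9, 15 and 3. Every control was far above every knockout, and the log2 fold change was -6.30 ± 0.53 (SE; 78.8-fold lower; limma, adjusted p = 3.65e-05). It passed the test in 9 of the 9 fits that left out 1 library, with log2 values of -6.59 to -5.94. In RD the same gene had 50 to 113 in the controls and 32 to 73 in the knockouts.

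KRT8, the type II partner, had 319, 770, 456 and 309 in the controls, against 92, 48, 94, 47 and 44 in the knockouts. It fell 6.95-fold (log2 -2.80 ± 0.38, adjusted p = 0.00263, limma) and passed in 9 of the 9 fits leaving out a library. The annotated spans of KRT8 and KRT18 overlap on opposite strands at their ends, and nothing in the labels says that strand was recorded, so reads from that overlap cannot be told apart. KRT17, a keratin of basal and stressed epithelia, had 1807, 5767, 3949 and 2028 in the controls, against 1257, 532, 1129, 366 and 751 in the knockouts. Its fall of 4.13-fold (log2 -2.05 ± 0.41, adjusted p = 0.0285, limma) passed in 4 of 9 such fits. KRT86, a hair keratin, went from 153 to 184 in the controls to 32 to 73 in the knockouts (log2 -1.67 ± 0.36, adjusted p = 0.0456, limma), and passed in 1 of 9. KRT86 overlaps KRT81, a close paralog, on the opposite strand, so its value is uncertain. In all 4 of 12 tested keratins fell (0.327% of all tested genes did) and 0 rose, with a list median of -1.22, and 1 was called with control 3 put back. The keratinocyte markers KRT5, KRT14 and KRT10 did not pass the test. Their summed level with KRT1 was 1007 to 1945 in the controls and 536 to 1722 in the knockouts.

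**Figure D2:**
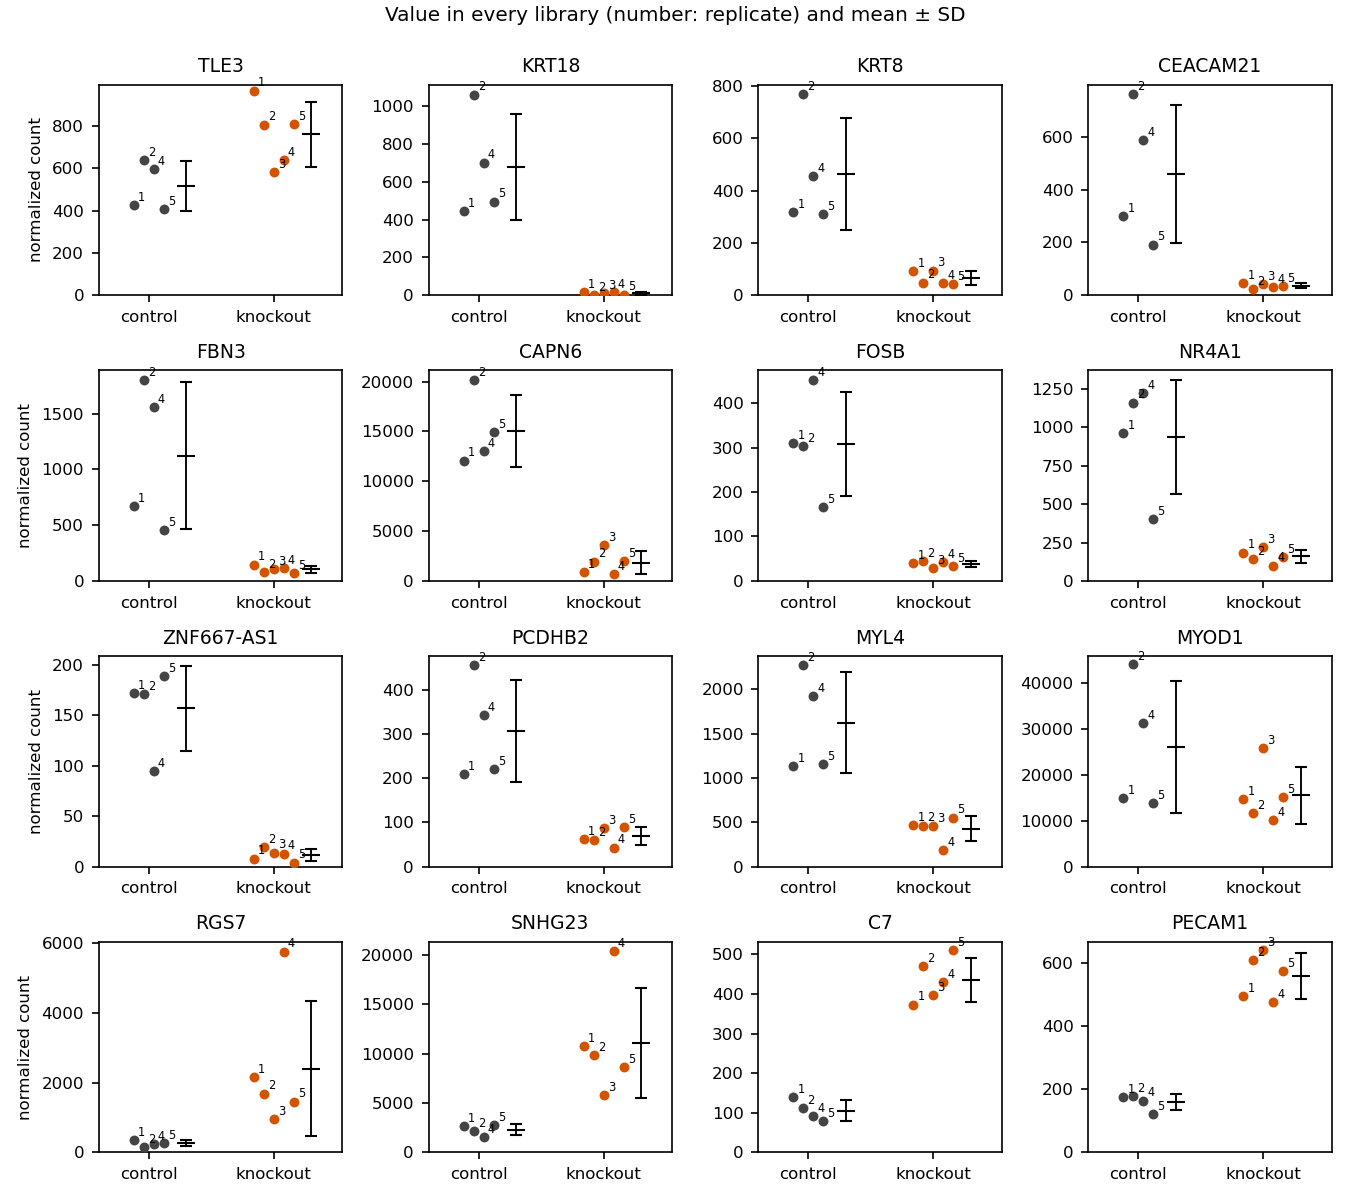
Normalized count of 16 genes in each control (dark points) and each knockout (orange points), numbered by replicate, with the mean ± SD beside the points on axes that start at 0. KRT18 lies at 445 or above in the controls and at 17 or below in the knockouts, while TLE3 and MYOD1 overlap.

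Of the immediate early genes, which are switched on within minutes of a growth or stress signal, FOSB, NR4A1, FOS and EGR1 fell. FOSB, a subunit of the AP-1 transcription factor, had 310, 303, 453 and 166 in the controls. The knockouts held 40, 45, 29, 42 and 33, all below every control. FOSB fell 7.59-fold (log2 -2.92 ± 0.36, adjusted p = 0.00112, limma) and passed in 9 of 9 fits leaving out a library. NR4A1, an orphan nuclear receptor, had 965, 1162, 1224 and 402 in the controls, against 185, 141, 218, 100 and 155 in the knockouts. It fell 5.55-fold (log2 -2.47 ± 0.36, adjusted p = 0.00511) and also passed in 9 of 9. FOS, the partner of JUN proteins in AP-1, went from 284 to 1863 in the controls to 66 to 207 in the knockouts (log2 -2.58 ± 0.46, adjusted p = 0.0158), and passed in 4 of 9. EGR1, a zinc finger factor of the growth response, went from 963 to 3422 to 389 to 698 (log2 -1.86 ± 0.34, adjusted p = 0.0183), and also passed in 4 of 9. Of 28 tested members of this list 4 fell and 0 rose, against 0.327% and 0.22% of all tested genes. At an unadjusted p below 0.05, 18 were lower, against 10.9% of all genes, and the list median was -1.03. Without knockout 3, 13 members passed as lower, as did 1026 of all genes, and with control 3 put back 0 members did. Control 3 alone had 3083 for FOS, above each of the other 9 SJRH30 libraries. In RD, FOSB, FOS and NR4A1 were also lower in the knockouts (log2 -5.99, -4.41 and -2.85). The RD change of FOSB was larger by 3.07 ± 0.47 on the log2 scale (adjusted p = 0.00484), and the test did not call a difference between the lines for FOS, NR4A1 or EGR1.

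In the protocadherin beta cluster on chromosome 5, PCDHB2, PCDHB5, PCDHB12 and PCDHB13 fell. The genes of this family encode cell surface adhesion proteins, each from its own short gene with its own promoter, and are best known in neurons. PCDHB2 had 209, 456, 343 and 220 in the controls, against 63, 61, 88, 43 and 90 in the knockouts. It fell 4.32-fold (log2 -2.11 ± 0.35, adjusted p = 0.012, limma). PCDHB5 had 125, 331, 276 and 175 against 28, 37, 98, 21 and 20 (log2 -2.61 ± 0.47, adjusted p = 0.0158). PCDHB12 went from 117 to 288 in the controls to 10 to 55 in the knockouts (log2 -2.39 ± 0.47, adjusted p = 0.0269). PCDHB13 went from 74 to 130 to 5 to 42 (log2 -2.66 ± 0.50, adjusted p = 0.0219). In each of these 4 genes every knockout lay below every control. They passed the test in 7, 6, 4 and 3 of the 9 fits that left out 1 library, in the order named.

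Of 15 tested beta genes 4 fell (0.327% of all tested genes did), 15 had a negative log2 value, and the median was -2.11. In 12 the groups did not overlap on the lower side, against 3.17% of all tested genes. Without knockout 3, 11 beta genes passed as lower, as did 1026 of all genes, and with control 3 put back 0 beta genes did. The least reduced was PCDHB9, with 95 to 230 in the controls and 67 to 138 in the knockouts (log2 -0.52 ± 0.36, adjusted p = 0.401). The neighbouring alpha genes had a median of 0.53 over 15 tested and the gamma genes one of -0.44 over 22, and none of either passed. At an unadjusted p below 0.05, limma put 1 alpha gene higher and 0 gamma genes on either side. The gamma values run only from -0.47 to -0.42, and those genes share exons, so they are not separate measurements. This list was drawn up after the values had been seen. Beta genes are similar to one another in sequence, and reads that fit more than 1 of them may have been lost or split. In RD the median of the beta genes was 0.35, and the lines differed for PCDHB2 by -2.41 ± 0.46 (adjusted p = 0.03).

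Promoters of the 4 reduced beta genes shared a run of 13 bases, GGTGGCGCTGCAG. It is shown in capitals in the 250 bases upstream of the RefSeq transcript start (GRCh38.p14), for the 4 called genes first. PCDHB9 follows as a gene that holds the run but was not called, and PCDHB14 as a gene that holds it with 1 mismatch and had 316 to 741 in the controls and 110 to 273 in the knockouts (log2 -1.29 ± 0.35, adjusted p = 0.103).
PCDHB2, chr5:141094365-141094614, plus strand: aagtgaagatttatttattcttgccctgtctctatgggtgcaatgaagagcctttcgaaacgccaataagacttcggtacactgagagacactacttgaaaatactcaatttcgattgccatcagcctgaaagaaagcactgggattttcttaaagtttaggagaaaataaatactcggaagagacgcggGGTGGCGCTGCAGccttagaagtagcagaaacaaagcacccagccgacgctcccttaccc
PCDHB5, chr5:141134956-141135205, plus strand: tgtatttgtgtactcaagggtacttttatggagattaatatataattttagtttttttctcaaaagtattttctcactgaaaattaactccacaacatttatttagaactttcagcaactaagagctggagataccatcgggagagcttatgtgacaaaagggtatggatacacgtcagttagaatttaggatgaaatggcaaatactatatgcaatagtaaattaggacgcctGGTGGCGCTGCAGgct
PCDHB12, chr5:141208469-141208718, plus strand: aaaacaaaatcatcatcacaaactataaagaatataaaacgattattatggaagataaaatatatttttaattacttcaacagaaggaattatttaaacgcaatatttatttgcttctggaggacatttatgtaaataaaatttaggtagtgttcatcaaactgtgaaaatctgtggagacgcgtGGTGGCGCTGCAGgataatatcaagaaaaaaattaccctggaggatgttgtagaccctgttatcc
PCDHB13, chr5:141213669-141213918, plus strand: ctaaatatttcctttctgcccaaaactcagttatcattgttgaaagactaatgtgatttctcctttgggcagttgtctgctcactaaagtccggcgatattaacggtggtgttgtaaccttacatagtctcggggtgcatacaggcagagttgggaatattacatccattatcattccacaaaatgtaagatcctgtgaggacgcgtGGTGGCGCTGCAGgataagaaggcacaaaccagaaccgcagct
PCDHB9, chr5:141186911-141187160, plus strand: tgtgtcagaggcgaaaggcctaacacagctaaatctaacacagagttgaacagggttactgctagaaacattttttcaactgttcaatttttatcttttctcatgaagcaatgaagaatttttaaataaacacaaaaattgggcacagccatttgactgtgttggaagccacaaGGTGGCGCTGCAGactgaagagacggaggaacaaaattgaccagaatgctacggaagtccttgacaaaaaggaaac
PCDHB14, chr5:141223093-141223342, plus strand: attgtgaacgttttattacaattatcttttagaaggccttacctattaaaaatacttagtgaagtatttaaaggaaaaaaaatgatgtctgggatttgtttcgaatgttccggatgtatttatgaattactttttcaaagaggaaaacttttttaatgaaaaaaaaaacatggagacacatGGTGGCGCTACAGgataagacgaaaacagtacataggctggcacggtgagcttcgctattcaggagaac
The run lies 60 bases before the start in PCDHB2, 16 in PCDHB5, 65 in PCDHB12 and 43 in PCDHB13, and 76 in PCDHB9, counted from its first base. It is present in 10 of the 14 beta promoters in the RefSeq table, including that of the uncalled PCDHB9. Among all 35116 promoters, searched on both strands over 250 bases before to 50 after the start, 15 hold it (0.0427%), 5 of them outside the beta genes. Clustered protocadherin promoters are known for a conserved sequence element, and no binding was measured here. The run does not separate called from uncalled beta genes.

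**Figure D3:**
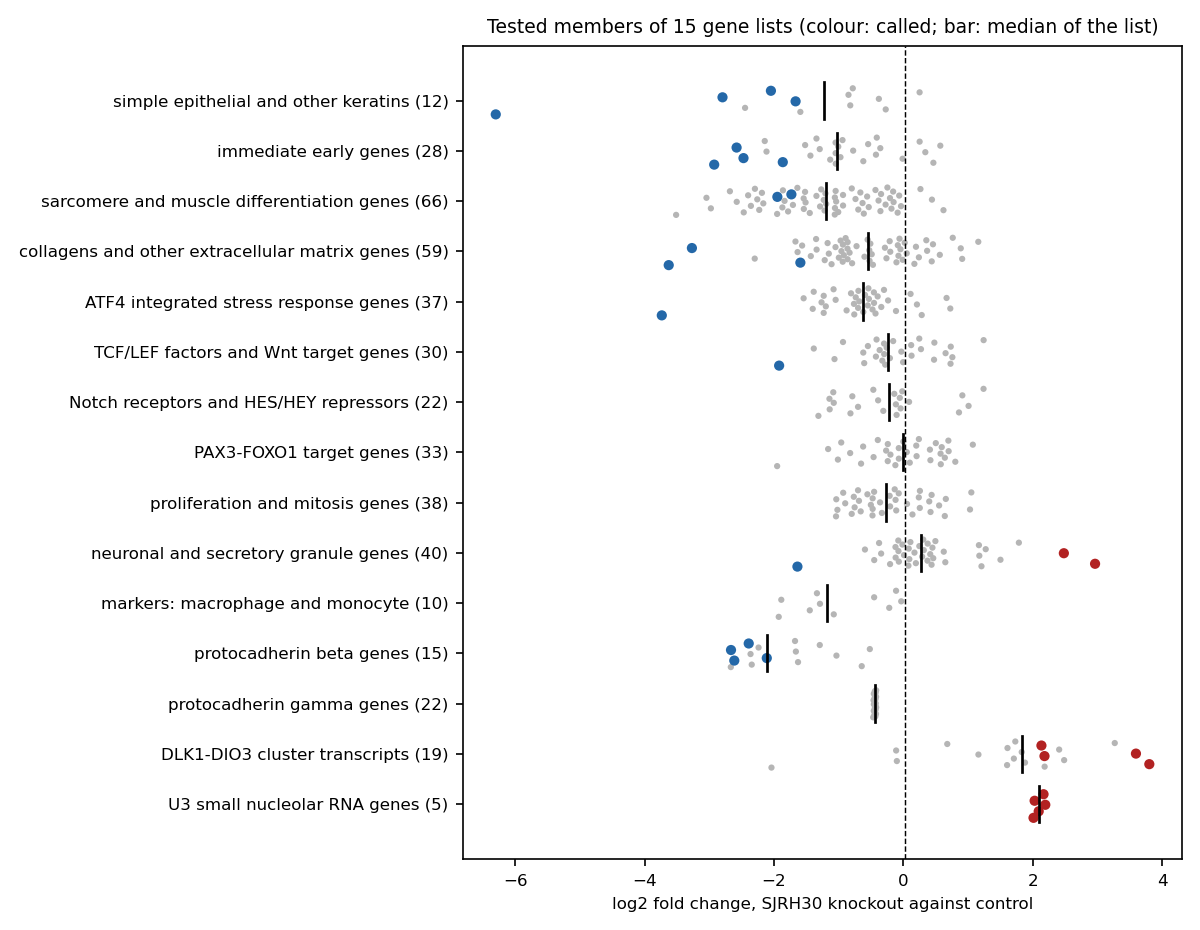
Log2 fold change of each tested member of 15 gene lists, with the number tested in brackets, called members in blue (lower) or red (higher), a bar at the list median and a dashed line at the median of all tested genes, 0.02. The keratin, immediate early, sarcomere and protocadherin beta lists have medians from -1.03 to -2.11, and the DLK1-DIO3 and U3 lists have medians of 1.83 and 2.09.

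Zinc finger genes near the end of chromosome 19 were among the reduced genes. ZNF667-AS1, a long non-coding RNA (56477250 to 56500666, plus strand), had 172, 171, 95 and 189 in the controls, against 8, 19, 14, 13 and 4 in the knockouts. It fell 13.4-fold (log2 -3.75 ± 0.46, adjusted p = 0.00112, limma) and passed in 9 of 9 fits leaving out a library. ZNF667, a KRAB zinc finger gene that starts beside it on the other strand, had 103, 66, 101 and 80 against 17, 31, 16, 9 and 7 (log2 -2.53 ± 0.46, adjusted p = 0.0172). Their annotated spans overlap, and reads from that stretch cannot be told apart. ZIK1, another KRAB gene, had 158, 106, 93 and 138 against 19, 10, 28, 18 and 24 (log2 -2.63 ± 0.40, adjusted p = 0.00751), and passed in 9 of 9. ZNF135, ZSCAN18 and ZNF347 fell by 2.05, 2.01 and 1.77 on the log2 scale (adjusted p = 0.0346, 0.0269 and 0.0269). Of the fits leaving out a library ZNF667 passed in 5, ZNF135 in 2, and ZSCAN18 and ZNF347 in 4 each. Of 105 tested zinc finger genes of this arm 5 fell and 0 rose, against 0.327% and 0.22% of all tested genes. The list median was -0.39, and the list was drawn up after the values had been seen. Of the 105, 69 had a log2 value below 0. At an unadjusted p below 0.05, 24 were lower and 2 higher, against 10.9% and 10.2% of all tested genes, and in 14 the groups did not overlap on the lower side, against 3.17% of all. In RD ZNF667-AS1 had 407 to 1319 in the controls and 505 to 899 in the knockouts, and the lines differed by -3.67 ± 0.54 (adjusted p = 0.00408).

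Of the matrix genes, FBN3, HAS1 and COL2A1 fell. FBN3, a fibrillin of extracellular microfibrils, had 671, 1804, 1558 and 453 in the controls. The knockouts held 147, 78, 107, 113 and 68, all below every control. FBN3 fell 9.64-fold (log2 -3.27 ± 0.40, adjusted p = 0.00112, limma) and passed in 9 of 9 fits leaving out a library. HAS1, which makes hyaluronan, had 160, 52, 90 and 80 against 8, 3, 44, 3 and 2 (log2 -3.63 ± 0.68, adjusted p = 0.0227). Its value in knockout 3 lay just under the lowest control, and it passed in 3 of 9. COL2A1, the main collagen of cartilage, went from 3471 to 10511 in the controls to 1413 to 2202 in the knockouts (log2 -1.59 ± 0.31, adjusted p = 0.0271), and passed in 3 of 9. CILP, a protein of cartilage matrix that was on no list, went from 623 to 2325 to 79 to 526 (log2 -3.06 ± 0.49, adjusted p = 0.0103), and passed in 9 of 9. Of 59 tested collagen and matrix genes 3 fell and 0 rose, against 0.327% and 0.22% of all tested genes, with a median of -0.55. At an unadjusted p below 0.05, limma put 23 lower and 4 higher, against 10.9% and 10.2% of all. Without knockout 3, 10 were called lower and 1 higher, against 1026 and 951 of all genes. With control 3 put back 0 of the 59 passed. Fibroblast and pericyte markers summed to 21951 to 69673 in the controls and 12835 to 55801 in the knockouts, highest there in knockout 3. Their part in the matrix genes was not tested, and in bulk tumors fewer cells of a type and less RNA per cell cannot be told apart.

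Other strongly reduced genes had no common list. CAPN6, a calpain without protease activity that stabilizes microtubules, was the most abundant of them, with 12069, 20160, 13059 and 14931 in the controls. Knockouts 1 to 5 held 907, 1934, 3585, 695 and 1981, and the fall was 9.58-fold (log2 -3.26 ± 0.40, adjusted p = 0.00112, limma). CEACAM21, of the carcinoembryonic antigen family, had 299, 762, 588 and 192 against 45, 24, 43, 32 and 36 (log2 -3.47 ± 0.41, adjusted p = 0.00112). TMEM273, a transmembrane protein, had 448, 366, 340 and 364 against 44, 53, 73, 22 and 49 (log2 -3.04 ± 0.36, adjusted p = 0.00112). SHC2, an adaptor of receptor tyrosine kinases, had 1242, 4050, 3802 and 987 against 529, 283, 205, 191 and 194 (log2 -3.01 ± 0.44, adjusted p = 0.00511). These 4 genes passed in 9 of 9 fits leaving out a library, as did SYCE1, a component of the meiotic synaptonemal complex, with 210 to 280 in the controls and 20 to 47 in the knockouts (log2 -2.90 ± 0.36, adjusted p = 0.00112).

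SHC2 and C2CD4C lie next to each other on chromosome 19, at 416583 to 460996 and 405438 to 409170. C2CD4C went from 50 to 175 in the controls to 1 to 15 in the knockouts (log2 -3.53 ± 0.59, adjusted p = 0.012, limma). CHAC1, which breaks down glutathione and is induced by ATF4, had 82, 545, 357 and 72 against 28, 11, 26, 7 and 6 (log2 -3.73 ± 0.62, adjusted p = 0.012). It was the only one of 37 tested ATF4 response genes called (0.546% of all tested genes were), and the list median was -0.62. At an unadjusted p below 0.05, 13 of the 37 were lower and 0 higher, against 10.9% and 10.2% of all tested genes. In 7 the groups did not overlap on the lower side, against 3.17% of all tested genes. Without knockout 3, 5 of the 37 were called lower, as were 1026 of all genes. Controls 2 and 4 were far higher in CHAC1 than controls 1 and 5. CCKBR, the gastrin receptor, and the antisense RNA MUC12-AS1 had log2 values of -2.95 and -3.15 and passed (adjusted p = 0.0456 and 0.0107). UCHL1, a deubiquitinase abundant in neurons, and FGFR3, a fibroblast growth factor receptor, each fell by 1.64 (adjusted p = 0.0456 and 0.0354).

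Among muscle genes MYL4 and MYMK fell. MYL4, the essential myosin light chain of embryonic muscle and atrium, had 1134, 2271, 1924 and 1153 in the controls. The knockouts held 466, 463, 462, 185 and 554, and MYL4 fell 3.86-fold (log2 -1.95 ± 0.35, adjusted p = 0.0161, limma). MYMK, the fusogen myomaker of myoblasts, had 685, 1692, 1050 and 654 against 308, 260, 495, 152 and 305 (log2 -1.73 ± 0.37, adjusted p = 0.0428). MYL4 passed in 7 and MYMK in 2 of the 9 fits leaving out a library. Of 66 tested sarcomere and differentiation genes 2 fell and 0 rose, against 0.327% and 0.22% of all tested genes. At an unadjusted p below 0.05, 36 were lower, against 10.9% of all, and the median was -1.20. The summed level of the list was 132078, 325545, 428441 and 144154 in controls 1, 2, 4 and 5 and 97923 to 154188 in the knockouts, so controls 1 and 5 lay among the knockouts and controls 2 and 4 above them. With control 3 put back 0 passed. In 6 of the 66 the groups did not overlap, all on the lower side, against 3.17% of all tested genes. MYOD1 had a log2 value of -0.65 ± 0.39 (adjusted p = 0.328) and MYOG one of -0.27 ± 0.37 (adjusted p = 0.695), so the myogenic factors themselves did not pass. Both turned positive with control 3 put back. The lines differed for MYL4 by -2.97 ± 0.46 (adjusted p = 0.00514), since RD had 290 to 692 in the controls and 666 to 1227 in the knockouts.

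Next come the TLE family and the pathways through which TLE3 is known to act. Among the other family members TLE1 had 6517, 11134, 8288 and 6820 in the controls, against 9052, 8231, 6718, 10072 and 8281 in the knockouts (log2 0.07 ± 0.27, adjusted p = 0.904, limma). TLE2, TLE4 and TLE5 had log2 values of -0.12, 0.78 and -0.66, and none passed (adjusted p = 0.866, 0.174 and 0.322). Over the family's 6 tested genes limma gave 1 higher and 0 lower at an unadjusted p below 0.05. Of 30 tested TCF/LEF factors and Wnt target genes only NOTUM passed, where 0.546% of all tested genes did. NOTUM, an enzyme that inactivates Wnt ligands and is itself a Wnt target, had 131, 310, 141 and 90 against 46, 61, 35, 33 and 28 (log2 -1.92 ± 0.40, adjusted p = 0.0421), and passed in 2 of 9 fits leaving out a library. AXIN2, the usual Wnt readout, had 291 to 480 in the controls and 207 to 386 in the knockouts (log2 -0.33 ± 0.30, adjusted p = 0.54). LEF1 had a log2 value of 0.65 ± 0.28 (adjusted p = 0.203) and TCF7L2 one of 1.24 ± 0.36 (adjusted p = 0.109). In the 9 fits leaving out a library LEF1 passed in 0 and TCF7L2 in 1. Of the 30 genes limma put 5 higher and 3 lower at an unadjusted p below 0.05, against 10.2% and 10.9% of all tested genes.

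No tested Notch gene passed, nor did RUNX1. HES1, the main Notch target, had 322, 509, 393 and 289 in the controls, against 375, 305, 443, 515 and 357 in the knockouts. Its log2 value of 0.09 ± 0.29 lay within its error. Of 22 tested Notch genes limma put 3 higher and 3 lower at an unadjusted p below 0.05, against 10.2% and 10.9% of all tested genes. RUNX1, a TLE partner in blood formation, had 4259, 4172, 3958 and 4090 in the controls, against 8496, 10113, 4941, 14186 and 10607 in the knockouts. Every knockout lay above every control, but with a log2 value of 1.15 ± 0.31 RUNX1 missed the threshold (adjusted p = 0.101). It passed without knockout 3.

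No target gene of the PAX3-FOXO1 fusion passed the test. PAX3 and FOXO1, whose counts include reads of the fusion transcript, had log2 values of 0.49 ± 0.29 and 0.43 ± 0.28 (adjusted p = 0.331 and 0.373, limma). FGFR4, a target gene of the fusion, had 27116, 86201, 64928 and 28009 in the controls, against 46222, 31167, 30700, 16336 and 30880 in the knockouts, and the groups overlapped. Of 33 tested target genes 0 passed, and the median was -0.0011. At an unadjusted p below 0.05, 3 were higher and 5 lower, against 10.2% and 10.9% of all tested genes. MYCN, an oncogene of these tumors, had 4065 to 7106 in the controls and 3756 to 7337 in the knockouts. MKI67, a marker of cycling cells, had 5243 to 9491 and 4598 to 8084, and of 38 tested proliferation genes 0 passed. Of the 38, limma put 2 higher and 8 lower at an unadjusted p below 0.05, against the same shares of all genes. Without knockout 3, 1 of the 38 was called higher and 2 lower, against 951 and 1026 of all genes.

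Genes that rose included RGS7, SCG2, G0S2 and MARC1, which share no single list. RGS7, which ends G protein signals in neurons, had 364, 161, 249 and 269 in the controls, against 2146, 1684, 949, 5754 and 1455 in the knockouts. It rose 7.79-fold (log2 2.96 ± 0.42, adjusted p = 0.00434, limma) and passed in 9 of 9 fits leaving out a library. SCG2, a granin of secretory vesicles, had 4, 3, 11 and 5 against 36, 32, 31, 34 and 34 (log2 2.48 ± 0.48, adjusted p = 0.0269). Of 40 tested neuronal and secretory genes these 2 rose and UCHL1 fell, against 0.22% and 0.327% of all tested genes. The list median was 0.27. G0S2, an inhibitor of lipid breakdown, had 2, 14, 3 and 2 against 43, 48, 104, 18 and 84 (log2 3.42 ± 0.62, adjusted p = 0.0168). It was the only one of 24 adipogenic and lipid storage genes to pass, where 0.546% of all tested genes did. G0S2 and SCG2 reached the minimum for testing through the knockouts, so the test could hardly have called either lower. MARC1, a reductase of the mitochondrial outer membrane, had 45, 43, 29 and 27 against 206, 200, 146, 217 and 132 (log2 2.30 ± 0.34, adjusted p = 0.00585), and passed in 9 of 9.

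PERP, a p53 target of desmosomes, had 97, 45, 35 and 163 in the controls, against 308, 376, 222, 284 and 492 in the knockouts (log2 2.18 ± 0.42, adjusted p = 0.0248, limma). No other gene among 22 tested CDK inhibitors and p53 targets passed. C7, a late component of complement, had 139, 112, 92 and 80 against 373, 471, 396, 430 and 510. All 5 knockouts lay above all 4 controls, with a log2 value of 2.06 ± 0.29 (adjusted p = 0.00434). SLC26A9, an anion channel, went from 9 to 35 in the controls to 71 to 113 in the knockouts (log2 2.18 ± 0.42, adjusted p = 0.0261). FBXL17, which removes misassembled BTB proteins, went from 738 to 1824 to 2907 to 10046 (log2 2.11 ± 0.37, adjusted p = 0.0156). Of the 9 fits leaving out a library, C7 passed in all 9, FBXL17 in 6, G0S2 in 5, PERP and SLC26A9 in 4 each, and SCG2 in 3.

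PECAM1, the adhesion molecule CD31 of endothelium and some blood cells, rose while the other endothelial markers did not pass. It had 175, 178, 164 and 122 in the controls, against 493, 609, 640, 475 and 574 in the knockouts (log2 1.80 ± 0.27, adjusted p = 0.00751, limma), and passed in 9 of 9 fits leaving out a library. The other 7 tested markers had log2 values of -0.62 to 0.42. CDH5, the cadherin that defines endothelium, had 60, 90, 89 and 51 against 66, 39, 246, 21 and 51. The summed list was 732 to 1094 in the controls and 1000 to 2168 in the knockouts, PECAM1 included.

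Host markers moved with the groups in part. Of 10 tested macrophage and monocyte markers 5 were lower at an unadjusted p below 0.05, against 10.9% of all tested genes. After adjustment 0 of the 10 markers passed, and their median was -1.18. Their sum was 6035 to 8666 in the controls and 3196 to 4469 in 4 of the knockouts, with 9451 in knockout 3. Without that library 6 of the 10 passed as lower, as did 1026 of all genes. C1QB, a complement component made by macrophages, had 1753, 1555, 1241 and 640 in the controls, against 291, 585, 1735, 160 and 365 in the knockouts. LYZ, lysozyme, had 1693, 886, 905 and 790 against 174, 269, 1696, 92 and 184. HBB, a globin of red blood cells, had 6481, 2825, 4733 and 3030 against 872, 1031, 2212, 635 and 3517. IGKC, an immunoglobulin constant region, was called lower (log2 -3.63 ± 0.74, adjusted p = 0.0334, limma), but no other B cell marker passed. IGKC had 7, 14, 18 and 24 in the controls, against 0, 0, 0, 0 and 2 in the knockouts. It was tested only because the 4 controls held 5 or more, so the test could hardly have called it higher. Of the fits leaving out a library, 5 tested IGKC and it passed in 1. Removal of mouse reads is not mentioned in the submitters' processing notes. The part of host cells in the called genes was not tested.

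From the imprinted DLK1-DIO3 region on chromosome 14, 4 transcripts rose. SNHG23, named MEG8 in GENCODE 29 (100894770 to 101038859, plus strand), is a long non-coding RNA that hosts small nucleolar RNAs. It had 2676, 2158, 1586 and 2746 in the controls, against 10736, 9849, 5769, 20387 and 8675 in the knockouts. It rose 4.53-fold (log2 2.18 ± 0.34, adjusted p = 0.00834, limma) and passed in 8 of 9 fits leaving out a library. RTL1, a gene derived from a retrotransposon, had 49, 74, 72 and 36 against 392, 224, 255, 196 and 207 (log2 2.13 ± 0.34, adjusted p = 0.0107). It overlaps SNHG23 on the opposite strand, and without strand the reads of the overlap cannot be told apart. SNORD113-3 and SNORD114-18, small nucleolar RNAs inside SNHG23, rose by 3.59 ± 0.69 and 3.80 ± 0.77 on the log2 scale (adjusted p = 0.0244 and 0.0341). SNORD113-3 had 0 to 6 in the controls and 16 to 44 in the knockouts. It was thus tested through the knockouts, and the test could hardly have called it lower. Of 32 listed transcripts of the region 19 were tested, with a median of 1.83, which such selection can raise. Among these 19, 4 rose and 0 fell, against 0.22% and 0.327% of all tested genes. Since the others overlap SNHG23, the 4 calls may not be separate observations. At an unadjusted p below 0.05, limma put 13 higher and 1 lower, against 10.2% and 10.9% of all. Without knockout 3, 7 were called higher and 1 lower, against 951 and 1026 of all genes. With control 3 put back 0 transcripts of the list passed. That list was also drawn up after the values had been seen. MEG3, the main long RNA of the region, had a log2 value of 0.68 (adjusted p = 0.434), and DLK1 one of -0.11 (adjusted p = 0.905).

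The 5 tested U3 small nucleolar RNA genes, needed to process ribosomal RNA, rose by 2.01 to 2.19 on the log2 scale, but these near-identical copies share reads and count as 1 observation. SNORD3A had 1436, 3020, 2989 and 1816 in the controls, against 13829, 7252, 4827, 10923 and 11076 in the knockouts (log2 2.03 ± 0.35, adjusted p = 0.0133, limma). RN7SL2, the RNA of the signal recognition particle, had 43304 to 72244 and 69999 to 325262 and did not pass (log2 1.42 ± 0.43, adjusted p = 0.117). These RNAs carry no poly(A) tail, and the libraries were made from poly(A)-selected RNA. Small nucleolar RNAs took 0.0541% to 0.084% of the counts in the controls and 0.0779% to 0.187% in the knockouts. Long intergenic RNAs took 1.53% to 2.00% and 1.89% to 5.16%. Those shares moved with the groups, and their part in the calls was not tested. LINC01359, LINC01811, LINC01950, MIR7515HG and ZRANB2-AS2, long RNAs of unknown or poorly known function, rose by 2.26, 2.13, 1.93, 1.96 and 1.92 on the log2 scale (adjusted p = 0.0139, 0.0143, 0.0444, 0.0219 and 0.0133).

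Fold changes followed the genomic span of genes across the whole set. Among 18128 tested protein-coding genes with an annotated span, split into 5 equal groups by span, the shortest group (median 5.27 kb) had a median log2 value of -0.48. The groups above it had -0.26, -0.03, 0.19 and 0.41, the last at a median span of 171 kb. Of the protein-coding genes that rose, 20 of 37 were in the longest group, and of those that fell, 4 of 70 were. The median span was 115 kb for the genes that rose, 15.8 kb for those that fell and 31.4 kb for all. The same tilt was present between libraries of 1 group. The median difference of the longest from the shortest group, relative to the control mean, was 0.61, -0.88, -0.39 and 0.62 in the controls. The knockouts had 0.60, 0.97, 0.29, 1.75 and 0.71. Controls 1 and 5 thus lay with the knockouts in this measure, and knockout 4 lay furthest out. Whether the tilt contributed to a given call was not tested. KRT18, FOSB and EGR1 are short genes, and RGS7 and FBXL17 are long ones.

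**Figure D4:**
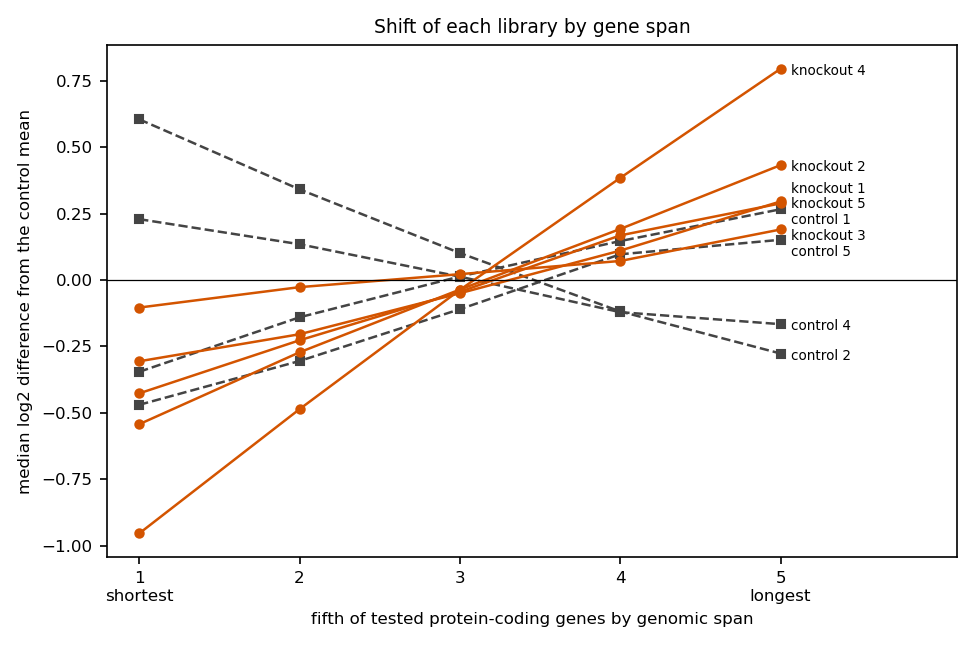
Median log2 difference of each library from the mean of the 4 controls, for protein-coding genes split into 5 groups by genomic span, with controls dashed and knockouts solid. Control 2 and control 4 slope down, and controls 1 and 5 slope up with all 5 knockouts.

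The effect of the knockout differed between the lines for 92 of 39530 genes tested in 18 libraries (0.233%), 54 more negative (0.137%) and 38 more positive (0.0961%) in SJRH30. In 78 of them the fitted changes had opposite signs. Of the genes called in SJRH30, 35 of the 113 that fell and 14 of the 76 that rose differed from RD by this test. These genes were chosen by their SJRH30 change, which is part of that difference, so the choice itself raises the share. The genes that fell in SJRH30 had a median log2 value of -0.08 in RD, and those that rose 0.28. Of the 113, 4 were also called lower in RD, and 0 of the 76 were called higher there. RD had calls in 0.152% of genes in either direction. KRT18 differed by -6.06 ± 0.68 (adjusted p = 0.000144, limma) and CEACAM21 by -4.05 ± 0.46 (adjusted p = 0.000144), with 466 to 657 in the RD controls and 654 to 1075 in the RD knockouts. SYCE1 differed by -3.06 ± 0.46 and MARC1 by 2.49 ± 0.38 (adjusted p = 0.00484 for both). FBXL7, an F-box protein of a ubiquitin ligase, was not called in SJRH30 (log2 1.18 ± 0.35, adjusted p = 0.113) but lay apart, at 2614 to 3940 in the controls and 3990 to 16647 in the knockouts. In RD it went from 2015 to 3365 in the controls to 654 to 833 in the knockouts, and the difference between the lines was 2.96 ± 0.41 (adjusted p = 0.0021). The pseudogene AKR1C5P rose in SJRH30 (3 to 22 against 30 to 57) and had 12 to 29 against 2 to 9 in RD, a difference of 4.43 ± 0.74 (adjusted p = 0.0103). With both left-out libraries put back the test called 1 gene more positive and 3 more negative.

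**Figure D5:**
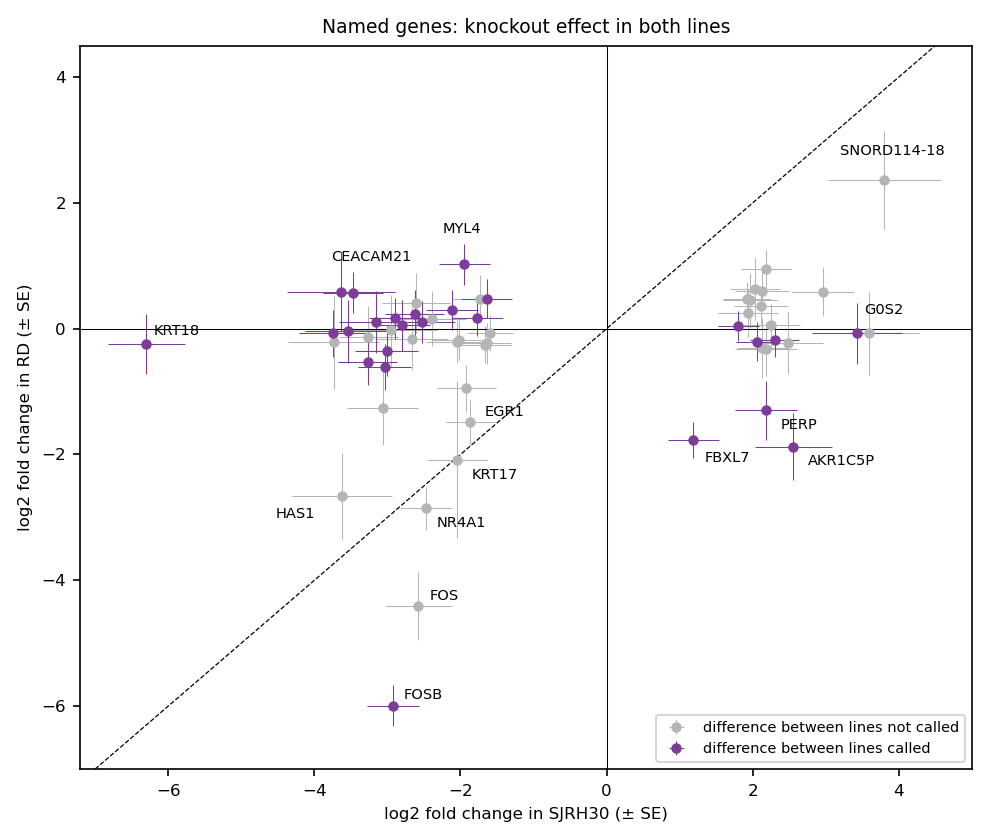
Log2 fold change in SJRH30 against that in RD with SE bars for 58 named genes, chosen in part by these changes. Purple marks genes where the difference between the lines was called (25 genes). KRT18 lies at -6.30 in SJRH30 and -0.24 in RD, FOSB is lower in both, and FBXL7, PERP and AKR1C5P have opposite signs.

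In the 300 bases around the RefSeq start, searched on both strands, the TCF/LEF core CTTTGA was present in 2 of 31 promoters of genes that rose (6.45%), 6 of 56 that fell (10.7%) and 10.6% of 15905 tested. For the RUNX core TGTGGT these shares were 6.45%, 7.14% and 10.99%, and for the HES-type E-box CACGTG 6.45%, 10.7% and 8.88%. The MYOD-type E-box CAGCTG was in 19.4%, 23.2% and 17.9%, the AP-1 motif TGANTCA in 9.68%, 8.93% and 6.03%, and the CRE TGACGTCA in 3.23%, 5.36% and 2.57%. The CRE rests on 1 and 3 promoters, and AP-1 on 3 and 5. A match is a run of letters and not a measured site. The median ratio of observed to expected CpG was 0.741, 0.645 and 0.767 in the same order.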

How the data were processed

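Tumor RNA was sequenced from 20 xenografts, of which 9 are compared here and 18 enter the test between lines. Per the submitters' processing notes, FastQC, fastp 0.20.1, STAR 2.7, featureCounts and edgeR were used with GRCh38.p7. The table deposited by the authors is named as normalized counts and holds whole numbers, treated here as a score and not as raw counts, so no count model was run. How they were normalized is not given in the sources used here, and values of 1 to a few are coarse. The authors' deposited table of log2 fold changes and adjusted p-values was used for comparison only.

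A gene was kept where 4 or more of the 9 libraries had a value of 5 or higher. Kept genes were put on the log2(value + 1) scale and tested with limma 3.58.1 (R 4.3.3), whose prior variance followed mean expression, with Benjamini-Hochberg adjustment over all genes tested and a threshold of 0.05. A fold change here is on the log2(value + 1) scale and understates low genes. The difference between lines is an interaction term in 18 libraries. "Passed in 9 of 9 fits" counts fits that each left out 1 library. Positions are from GENCODE 29 and promoters from RefSeq. Gene names and positions were joined with Python 3.11.15. The script was tested on simulated data.

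Members and gene lists were chosen with earlier results of these data known. The protocadherin, DLK1-DIO3, U3 and chromosome 19 zinc finger lists, the 13-base run, and some single genes were chosen after their values were seen. Otherwise the rule took TLE3, the 14 largest changes in each direction with a mean of at least 50 and groups that do not overlap, the 6 smallest p-values in each direction, called members of the lists with up to 3 abundant members, a set of TLE, muscle and pathway genes, and the 5 smallest p-values in each direction for the difference between lines. Some uncalled genes of that rule are not named. Alternatives were other pseudocounts, filters, scalings, weights, libraries left out and a replicate block.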

Additional observations from a re-analysis of the deposited data

Results flagged for a closer look

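Single libraries stood apart within their group in 8 of 162 groups of values checked, and chance flags about 1 in 20. Knockout 4 was the library in 5 of these. It had 1048 for LINC01811 against 373 to 407 in the other knockouts, and 185 for MYL4 against 462 to 554. It had 1615 for UCHL1 against 3747 to 4650, 3756 for MYCN against 6117 to 7337, and 1 for C2CD4C against 8 to 15. Knockout 1 had 78 for MIR7515HG against 144 to 181, and knockout 5 had 2 for IGKC, which is listed at 0 in the other knockouts. Control 4 had 95 for ZNF667-AS1 against 171 to 189 in the other controls.

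The knockout effect differed between SJRH30 and RD in 25 of the 81 named genes checked by limma's interaction test, against 0.233% of all genes tested. The named genes were chosen partly by this same test and by the size of the SJRH30 change, which raises their share. IGKC entered the test through the SJRH30 controls alone. Values are the SJRH30 log2 fold change minus that of RD. Among genes that fell in SJRH30 the difference was -6.06 for KRT18, -2.85 for KRT8, -4.05 for CEACAM21, -4.21 for IGKC, -3.67 for ZNF667-AS1, -2.63 for ZNF667, -2.86 for ZIK1 and -1.94 for ZNF347. It was -3.49 for C2CD4C, -2.66 for SHC2, -3.26 for MUC12-AS1, -3.06 for SYCE1, -2.97 for MYL4, -2.73 for FBN3, -2.43 for TMEM273, -2.41 for PCDHB2 and -2.11 for UCHL1. FOSB, lower in both lines, differed by 3.07. Among genes that rose the difference was 4.43 for AKR1C5P, 3.49 for G0S2, 3.48 for PERP, 2.49 for MARC1, 2.26 for C7 and 1.77 for PECAM1. FBXL7, not called in SJRH30, differed by 2.96. The pseudogene AC073055.2 was not among the 81, and its difference between the lines was also called (adjusted p = 0.00484, limma). AC073055.2 is listed at 0 in every SJRH30 knockout and had at most 4 in each RD library, so no fold is given. It too entered the test through the SJRH30 controls alone, so a call of more positive was hardly possible.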

How the results depend on the processing

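The 76 higher and 113 lower genes stayed within 1.5 times under other pseudocounts, filters, median ratio scaling and quantile normalization. They became 15 and 27 without a mean-variance trend, 307 and 284 with array weights, 0 and 4 with control 3 put back (which moved the median log2 of all genes to 0.17), and 857 and 731 in a fit of 18 libraries. Leaving out 1 library gave 9 to 951 higher and 20 to 1026 lower. Without controls 1, 2, 4 and 5 in turn the counts were 39 and 59, 20 and 22, 15 and 20, and 134 and 171. Without knockouts 1, 2, 3 and 5 they were 28 and 52, 22 and 49, 951 and 1026, and 9 and 32. The difference between lines went from 38 more positive and 54 more negative genes to 1 and 3 with all 20 libraries, and to 8 to 57 and 11 to 77 when leaving out 1 library. The causes were not tested.

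Replicate numbers showed no pairing of the samples. The deviations of same-numbered libraries from their own group means correlated at -0.17, -0.10, -0.11 and 0.05. Those of pairs with different numbers correlated at -0.18 to 0.18. With the replicate block 206 genes were called higher and 342 lower, of which 67 and 97 were among the 76 and 113.

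Signs turned only in genes that were not called. With control 3 the log2 value was 0.14 for TLE5, 0.29 for MYOD1, 0.62 for MYOG, 0.74 for FGFR4 and 0.096 for MKI67. MKI67 had 0.052 under quantile normalization, 0.12 with array weights and 0.025 without control 2. TLE1 had -0.029 without control 1 and -0.0075 without control 5, within -0.029 to 0.23 over the fits leaving out 1 library. TLE2 had 0.12 with array weights, and 0.059, 0.0017 and 0.018 without control 2, control 4 and knockout 4, where such fits ran from -0.37 to 0.059. MYOG had 0.039 without control 2 (lowest such fit -0.49), and HES1 had -0.030 and -0.010 without control 5 and knockout 4 (highest 0.24). The lowest such fit for MKI67 was -0.26.

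The deposited values do not give the read depth of a library, so low genes such as IGKC and SNORD113-3 carry counting error that was not estimated.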
